A study of Mus musculus with 12 samples.

Results

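The genes described here are 37 genes of mitosis and of the G2 to M transition, chosen by gene symbol from a list of known mitotic genes. All 37 were found among the 33641 genes listed in the deposited tables, and all 37 passed the filter on low values. Their RNA was sequenced in peritoneal macrophages of mice, which live free in the abdominal cavity. There were 12 libraries, all untreated at day 0: 3 of wild type (WT), 3 of SAMHD1 knockout (SAMHD1 KO), 3 of MDA5 knockout (MDA5 KO) and 3 that lack both (SAMHD1 MDA5 DKO). SAMHD1 is an enzyme that degrades deoxynucleotides, and MDA5, the product of Ifih1, is a sensor of long double-stranded RNA. The labels give no strain, sex, age, knockout allele or sorting step, and they are silent on whether each library is from its own animal. The p-values below therefore measure only the spread between libraries, which may be technical.

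Resident macrophages of body cavities keep their number partly by dividing in place. A cell that leaves G2 switches on CDK1 with its cyclins A and B. The mitotic kinases, the kinetochore and the spindle then separate the chromosomes, the anaphase-promoting complex destroys the cyclins, and the midzone directs cytokinesis. The genes for these proteins are transcribed together late in the cycle. The DREAM complex represses them in resting cells, and NF-Y, B-MYB with MuvB, and FOXM1 activate them in G2, largely through CCAAT boxes and the cell cycle genes homology region (CHR) near the start of the gene. In bulk RNA, fewer cells of a type and less RNA per cell cannot be told apart, so a low value can stand for fewer dividing cells or for less transcript in each.

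The promoters are shown because the members are known as a group that is regulated together. Of the 37 members, 31 had an entry in the RefSeq promoter table (GRCm38.p6), with 33 promoters among them. Ccna2, Tpx2, Aurkb, Kif20a, Pbk and Incenp are named only. Within the 250 bases before the start, 26 of 33 promoters (78.8%) held CCAAT on either strand, against 33.8% of all 32851 promoters in the table. The CHR core, searched as TTTGAA or TTCGAA on either strand, was found in 12 (36.4%), against 17.1%. Both motifs together were found in 33.3% against 6.02%, and at least 2 CCAAT boxes in 54.5% against 10.1%. In 68 promoters of 61 other G2/M genes the shares were 66.2% for CCAAT, 47.1% for the CHR core and 33.8% for both. A match is a stretch of letters and not a shown binding site. The 6 promoters printed below belong to genes whose values recur in the results: Cdk1 and Ccnb2 for the spread between libraries, and Top2a, Mki67, Ube2c and Racgap1 for the comparisons of genotypes. They run 5′ to 3′ in the direction of the gene, with the CCAAT boxes and the CHR cores of either strand in capitals. In Ube2c a box on each strand overlaps the other, and both were counted.
Cdk1 (chr10:69352913-69353162, minus strand): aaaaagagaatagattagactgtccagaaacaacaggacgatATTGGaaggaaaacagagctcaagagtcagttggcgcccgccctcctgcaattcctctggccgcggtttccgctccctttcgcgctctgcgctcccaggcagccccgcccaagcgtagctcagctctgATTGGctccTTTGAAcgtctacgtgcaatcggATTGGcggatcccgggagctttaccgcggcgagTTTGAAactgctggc
Ccnb2 (chr9:70421555-70421804, minus strand): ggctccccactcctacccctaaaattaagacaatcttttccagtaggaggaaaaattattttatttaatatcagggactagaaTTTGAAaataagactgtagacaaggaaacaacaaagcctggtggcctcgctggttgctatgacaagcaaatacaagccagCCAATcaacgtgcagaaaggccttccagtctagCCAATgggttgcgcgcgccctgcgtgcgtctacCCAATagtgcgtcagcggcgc
Top2a (chr11:99024190-99024439, minus strand): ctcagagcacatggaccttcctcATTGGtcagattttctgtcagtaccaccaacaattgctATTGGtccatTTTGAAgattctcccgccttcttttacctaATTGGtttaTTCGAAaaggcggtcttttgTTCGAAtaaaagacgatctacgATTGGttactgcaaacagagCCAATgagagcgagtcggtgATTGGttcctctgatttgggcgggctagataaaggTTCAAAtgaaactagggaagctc
Mki67 (chr7:135716380-135716629, minus strand): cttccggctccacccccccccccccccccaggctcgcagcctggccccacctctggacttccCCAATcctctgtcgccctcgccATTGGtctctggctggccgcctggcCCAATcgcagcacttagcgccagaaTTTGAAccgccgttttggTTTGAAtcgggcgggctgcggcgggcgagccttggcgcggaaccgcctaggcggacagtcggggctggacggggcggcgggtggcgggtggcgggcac
Ube2c (chr2:164769679-164769928, plus strand): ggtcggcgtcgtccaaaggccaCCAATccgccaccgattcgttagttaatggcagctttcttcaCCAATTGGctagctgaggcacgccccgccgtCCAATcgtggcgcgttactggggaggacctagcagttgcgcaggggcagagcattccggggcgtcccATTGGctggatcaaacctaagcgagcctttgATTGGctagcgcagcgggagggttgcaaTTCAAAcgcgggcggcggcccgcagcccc
Racgap1 (chr15:99651657-99651906, minus strand): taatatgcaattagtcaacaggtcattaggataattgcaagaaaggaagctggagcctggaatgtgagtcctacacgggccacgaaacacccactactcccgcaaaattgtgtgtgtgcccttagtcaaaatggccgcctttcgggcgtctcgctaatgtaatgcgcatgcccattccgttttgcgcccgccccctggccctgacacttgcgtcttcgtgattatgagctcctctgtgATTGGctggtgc
Top2a and Ube2c held 6 CCAAT boxes each, Cdk1, Ccnb2 and Mki67 3 each, and Racgap1 1. Top2a held 4 CHR cores, Cdk1 and Mki67 2 each, Ccnb2 and Ube2c 1 each, and Racgap1 0.

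Recovered totals ran from 33234361 reads in WT 3 to 58345425 in SAMHD1 MDA5 DKO 1. Samhd1 gave 1747 to 4960 normalised reads in the 6 libraries without SAMHD1 and 7067 to 17462 in the 6 others, and Ifih1 gave 0 to 41.9 in the 6 libraries without MDA5 and 816 to 3745 in the others. Markers of peritoneal macrophages were high in every library, with 4901 normalised reads or more of Gata6 and 113112 or more of Adgre1. Libraries stood apart in each of 3 genotypes. In WT 3, 31.4% of all tested genes had their highest and 36.4% their lowest value of the 12 libraries, and Lyz2 gave 215984 normalised reads against 1457330 to 4930207 elsewhere. SAMHD1 KO 1 differed from SAMHD1 KO 2 and 3, which were closer to each other than any other pair of a genotype (mean chi-square per gene 6.8, against 52.8 to 802) but still differed by more than counting error. Reads fell in 800 of 1038 genes for olfactory receptors in MDA5 KO 2 but in 107 to 194 of them elsewhere. The comparisons below are therefore also given without WT 3, SAMHD1 KO 1 or both, a setting chosen after seeing the data. Without SAMHD1 KO 1 that genotype rests on SAMHD1 KO 2 and 3 alone, and whether these are independent is not known. Calls in that setting may therefore count too little spread. This holds for every comparison, also those without SAMHD1 KO, because all genotypes share the estimate of the spread. Without WT 3 the WT genotype rests on WT 1 and 2 alone. Of these, WT 2 had the highest sums of T, B and mast cell markers of all 12 libraries.

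Values are normalised reads, that is reads divided by a size factor per library, and the 3 values of a genotype follow the library numbers 1, 2 and 3. Levels differed widely among the members. Per kilobase of gene length, Incenp had the highest median over the 12 libraries at 603 normalised reads, followed by Racgap1 at 296, Top2a at 170 and Ccnb2 at 135. Ccnb1 at 12.4, Cenpf at 13.6 and Ttk at 13.7 had the lowest. Incenp and Racgap1 were also the members that varied least between libraries of a genotype. The genes of 6 members overlap another tested gene on the opposite strand (Ccna2 with Exosc9, Cdca8 with 9930104L06Rik, Cdc20 with Elovl1, Nusap1 with Oip5, Kif20a with Cdc23 and Prc1 with Rccd1). Whether the counting used strand is not given in the sources used here, so reads of such pairs may be shared.

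**Figure D1:**
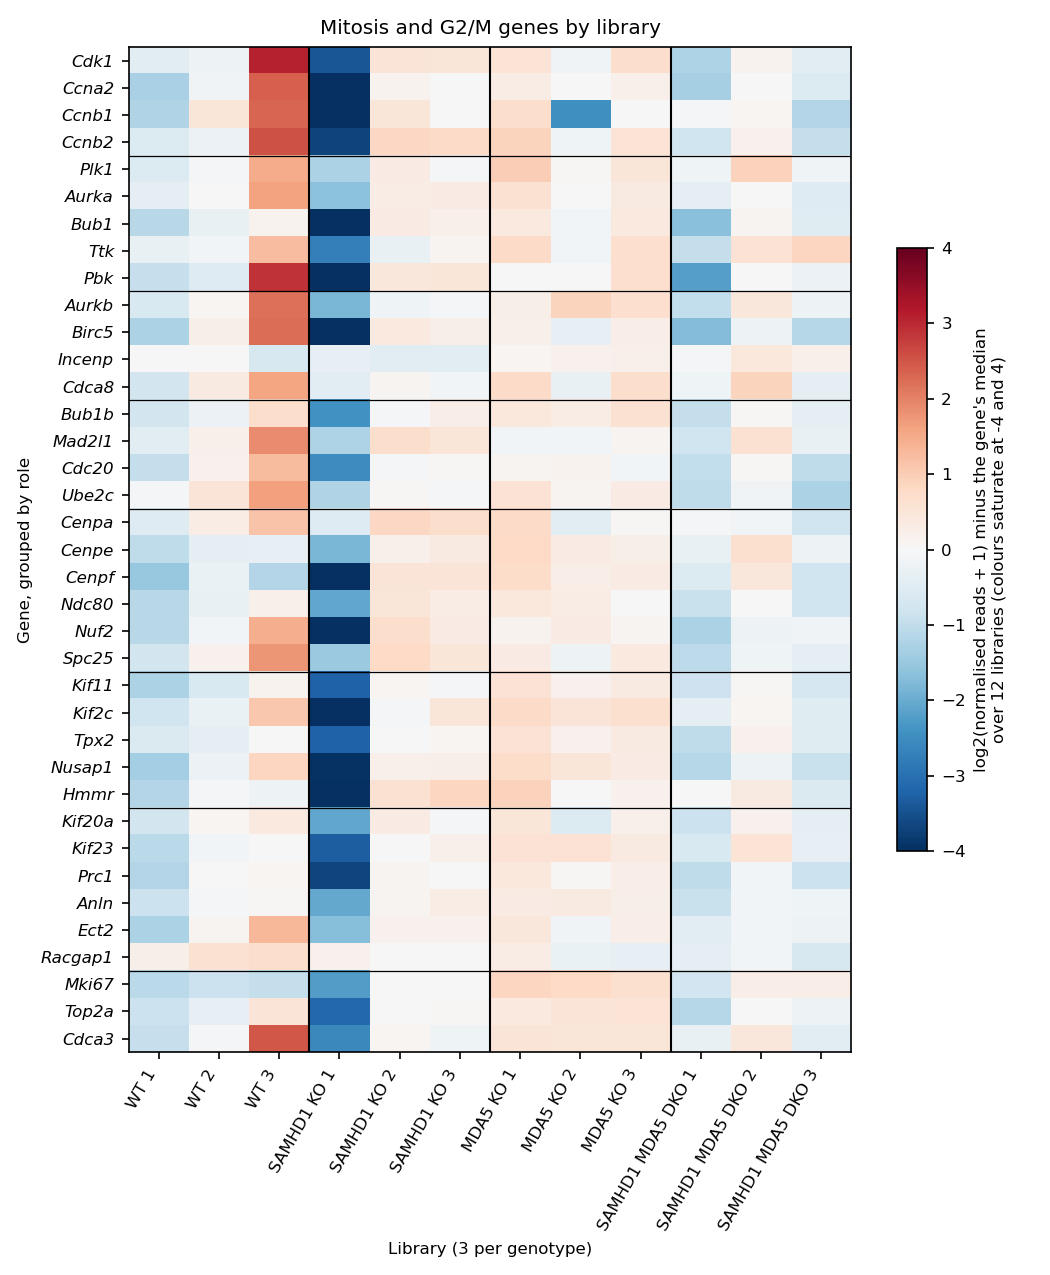
Level of each of 37 members (rows, grouped by role, with lines between groups) in each of 12 libraries (columns), as log2(normalised reads + 1) minus the median of that gene over the libraries. WT 3 is the highest library for 23 members and SAMHD1 KO 1 the lowest for 32, while the 3 MDA5 KO libraries lie close together.

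Cyclins and CDK1 drive entry into mitosis. Cdk1, the kinase itself, had normalised reads of 163, 194 and 1885 for WT, of 20, 320 and 317 for SAMHD1 KO, of 326, 201 and 364 for MDA5 KO, and of 95.4, 249 and 168 for SAMHD1 MDA5 DKO. Ccna2, which encodes cyclin A2, had normalised reads of 195, 436 and 2524 for WT, of 10.8, 530 and 478 for SAMHD1 KO, of 594, 481 and 554 for MDA5 KO, and of 192, 479 and 326 for SAMHD1 MDA5 DKO. Both were highest in WT 3 and lowest in SAMHD1 KO 1, and the other 10 libraries lay between. Ccnb1, for cyclin B1, had normalised reads of 22.3, 74 and 265 for WT, of 0.831, 73.5 and 51.4 for SAMHD1 KO, of 86.4, 8.74 and 53.2 for MDA5 KO, and of 50.2, 55.5 and 22.4 for SAMHD1 MDA5 DKO. Ccnb2, for cyclin B2, had normalised reads of 139, 174 and 1217 for WT, of 15, 364 and 348 for SAMHD1 KO, of 385, 181 and 298 for MDA5 KO, and of 118, 233 and 106 for SAMHD1 MDA5 DKO. WT 3 held 10.6 times the mean of WT 1 and 2 for Cdk1, 8 times for Ccna2, 7.78 times for Ccnb2 and 5.5 times for Ccnb1. In SAMHD1 KO 1, Ccnb1 rested on 1 read. The ratio of SAMHD1 KO 2 and 3 over it was 75.5, with an exact 95% counting interval of 13.3 to 3009 that covers counting error only. SAMHD1 KO 2 and 3 held 16 times the SAMHD1 KO 1 value for Cdk1, 23.8 times for Ccnb2 and 46.6 times for Ccna2. Ccnb1 was the only member for which an MDA5 KO library stood far below the others of its genotype, at 8.74 in MDA5 KO 2.

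The mitotic kinases outside the passenger complex build the spindle and watch over it. Plk1, polo-like kinase 1, had normalised reads of 63.2, 87.3 and 258 for WT, of 37.4, 115 and 89.3 for SAMHD1 KO, of 183, 94.9 and 129 for MDA5 KO, and of 82.2, 177 and 83.9 for SAMHD1 MDA5 DKO. Aurka, the centrosomal Aurora kinase, had normalised reads of 95.8, 123 and 373 for WT, of 39.1, 153 and 154 for SAMHD1 KO, of 190, 122 and 158 for MDA5 KO, and of 92.6, 121 and 85.8 for SAMHD1 MDA5 DKO. In both, WT 3 was highest and SAMHD1 KO 1 lowest, by smaller factors than for the cyclins: WT 3 held 3.43 and 3.41 times the mean of WT 1 and 2. Bub1, a kinetochore kinase of the spindle checkpoint, had normalised reads of 73.4, 129 and 176 for WT, of 3.33, 197 and 183 for SAMHD1 KO, of 210, 147 and 208 for MDA5 KO, and of 48.8, 171 and 113 for SAMHD1 MDA5 DKO. For Bub1 MDA5 KO 1 was the highest library, and SAMHD1 KO 1, with 4 reads, lay 57.3 times below the mean of the 2 other SAMHD1 KO libraries. Ttk, the checkpoint kinase MPS1, ran from 9.15 in SAMHD1 KO 1 to 159 in WT 3. Pbk, a kinase made in mitosis, ran from 6.65 in SAMHD1 KO 1 to 1332 in WT 3, which was 12.3 times the mean of WT 1 and 2 and the largest such ratio among the members.

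The chromosomal passenger complex corrects the attachment of chromosomes. Aurkb, its kinase, had normalised reads of 173, 283 and 1240 for WT, of 74, 238 and 249 for SAMHD1 KO, of 310, 496 and 428 for MDA5 KO, and of 135, 368 and 230 for SAMHD1 MDA5 DKO. Birc5, which encodes survivin, had normalised reads of 79.9, 226 and 917 for WT, of 8.31, 255 and 226 for SAMHD1 KO, of 220, 152 and 234 for MDA5 KO, and of 57.8, 169 and 86.8 for SAMHD1 MDA5 DKO. Both had their highest value in WT 3 and their lowest in SAMHD1 KO 1. Incenp, the scaffold of the complex, had normalised reads of 1936, 1945 and 1235 for WT, of 1560, 1451 and 1448 for SAMHD1 KO, of 2067, 2173 and 2246 for MDA5 KO, and of 1853, 2596 and 2217 for SAMHD1 MDA5 DKO. Incenp was thus lowest in WT 3 and almost level within the SAMHD1 KO genotype, unlike its partners. Cdca8, borealin, ran from 89.2 in WT 1 to 445 in WT 3, and SAMHD1 KO 1 at 111 was not its lowest library.

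The spindle checkpoint holds back the anaphase-promoting complex until all chromosomes are attached. Bub1b, which encodes the checkpoint protein BUBR1, had normalised reads of 168, 234 and 457 for WT, of 50.7, 271 and 333 for SAMHD1 KO, of 373, 342 and 422 for MDA5 KO, and of 143, 285 and 219 for SAMHD1 MDA5 DKO. Cdc20, the activator of the complex, had normalised reads of 110, 242 and 511 for WT, of 36.6, 207 and 221 for SAMHD1 KO, of 232, 235 and 196 for MDA5 KO, and of 108, 222 and 104 for SAMHD1 MDA5 DKO. WT 3 was highest and SAMHD1 KO 1 lowest for both. Ube2c, the ubiquitin-conjugating enzyme that works with the complex, had normalised reads of 186, 277 and 603 for WT, of 84, 199 and 187 for SAMHD1 KO, of 287, 207 and 244 for MDA5 KO, and of 94, 174 and 80 for SAMHD1 MDA5 DKO. For Ube2c, SAMHD1 MDA5 DKO 3 was the lowest library, just below SAMHD1 KO 1, and all 3 SAMHD1 MDA5 DKO libraries lay below all 3 WT libraries. Mad2l1, the checkpoint protein MAD2, ran from 202 in SAMHD1 KO 1 to 1797 in WT 3.

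Centromere and kinetochore genes encode the plate to which the spindle attaches. Cenpa, the histone H3 variant of centromeres, had normalised reads of 327, 573 and 1027 for WT, of 323, 818 and 750 for SAMHD1 KO, of 786, 340 and 482 for MDA5 KO, and of 447, 426 and 264 for SAMHD1 MDA5 DKO. Cenpe, a kinetochore motor, had normalised reads of 104, 159 and 166 for WT, of 58.2, 239 and 267 for SAMHD1 KO, of 367, 261 and 247 for MDA5 KO, and of 171, 325 and 183 for SAMHD1 MDA5 DKO. Cenpa was highest in WT 3, whereas for Cenpe the WT libraries lay below all MDA5 KO and all SAMHD1 MDA5 DKO libraries. Cenpf, a large kinetochore protein, had normalised reads of 71.6, 171 and 91.9 for WT, of 5.82, 298 and 296 for SAMHD1 KO, of 343, 250 and 261 for MDA5 KO, and of 141, 280 and 119 for SAMHD1 MDA5 DKO. Ndc80, the microtubule-binding subunit of the outer kinetochore, had normalised reads of 80.9, 143 and 200 for WT, of 40.7, 243 and 215 for SAMHD1 KO, of 234, 217 and 175 for MDA5 KO, and of 93.3, 175 and 100 for SAMHD1 MDA5 DKO. Cenpf was 51.1 times higher in SAMHD1 KO 2 and 3 than in SAMHD1 KO 1, and in WT 3 it was 0.759 times the mean of WT 1 and 2. Nuf2 and Spc25, partners of Ndc80, ran from 6.65 to 442 and from 44.9 to 434, each from SAMHD1 KO 1 to WT 3.

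Spindle motors and microtubule binders push the poles apart and hold the fibres. Kif11, the motor Eg5, had normalised reads of 159, 249 and 420 for WT, of 39.9, 409 and 368 for SAMHD1 KO, of 579, 435 and 497 for MDA5 KO, and of 217, 400 and 238 for SAMHD1 MDA5 DKO. Tpx2, which activates Aurora A on the spindle, had normalised reads of 202, 229 and 307 for WT, of 31.6, 298 and 322 for SAMHD1 KO, of 451, 343 and 391 for MDA5 KO, and of 149, 345 and 215 for SAMHD1 MDA5 DKO. MDA5 KO 1 was the highest library of both, and SAMHD1 KO 1 the lowest. Kif2c and Nusap1 were highest in WT 3, at 189 and 497, and Hmmr in MDA5 KO 1 at 226. Their lowest values, 2.49, 16.6 and 4.16, were all in SAMHD1 KO 1, where Kif2c rested on 3 reads.

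Genes of the midzone and of cytokinesis act last. Kif20a, a midzone kinesin, had normalised reads of 149, 264 and 323 for WT, of 58.2, 312 and 234 for SAMHD1 KO, of 351, 171 and 287 for MDA5 KO, and of 136, 280 and 188 for SAMHD1 MDA5 DKO. Kif23, the kinesin of the centralspindlin complex, had normalised reads of 135, 267 and 286 for WT, of 28.3, 286 and 329 for SAMHD1 KO, of 428, 425 and 365 for MDA5 KO, and of 187, 416 and 226 for SAMHD1 MDA5 DKO. Anln, the scaffold anillin of the cleavage furrow, had normalised reads of 257, 452 and 476 for WT, of 111, 498 and 573 for SAMHD1 KO, of 587, 589 and 542 for MDA5 KO, and of 248, 429 and 408 for SAMHD1 MDA5 DKO. WT 3 was close to WT 2 in these 3 genes, and SAMHD1 KO 1 was the lowest of the 12 libraries. Racgap1, the partner of Kif23 in centralspindlin, had normalised reads of 2465, 3193 and 3435 for WT, of 2370, 2092 and 2101 for SAMHD1 KO, of 2566, 1760 and 1673 for MDA5 KO, and of 1637, 1926 and 1341 for SAMHD1 MDA5 DKO. Racgap1 did not follow Kif23: it was high in every library, and SAMHD1 KO 1 lay above the 2 others of its genotype. Prc1, which bundles midzone microtubules, ran from 24.1 in SAMHD1 KO 1 to 428 in MDA5 KO 1, and Ect2, which activates RhoA there, from 62.4 in SAMHD1 KO 1 to 516 in WT 3.

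The last group holds markers in wide use. Mki67 (ENSMUSG00000031004, chromosome 7, 135689784 to 135716361), the Ki-67 antigen, had normalised reads of 612, 722 and 672 for WT, of 279, 1279 and 1327 for SAMHD1 KO, of 2350, 2262 and 2019 for MDA5 KO, and of 770, 1551 and 1575 for SAMHD1 MDA5 DKO. Top2a, topoisomerase II alpha, had normalised reads of 851, 1222 and 2186 for WT, of 172, 1522 and 1586 for SAMHD1 KO, of 2019, 2210 and 2259 for MDA5 KO, and of 696, 1547 and 1328 for SAMHD1 MDA5 DKO. The 3 MDA5 KO libraries of Mki67 lay above all 9 others, the lowest of them 1.28 times the highest other library, while the WT libraries differed from each other by little. Kif11 was the only further member with all 3 MDA5 KO libraries above the 9 others, by a factor of 1.03. The share of all tested genes so placed was not counted, so this count has no background. Cdca3, a trigger of mitotic entry, gave 177, 176 and 176 in MDA5 KO but 66, 117 and 709 in WT.

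**Figure D2:**
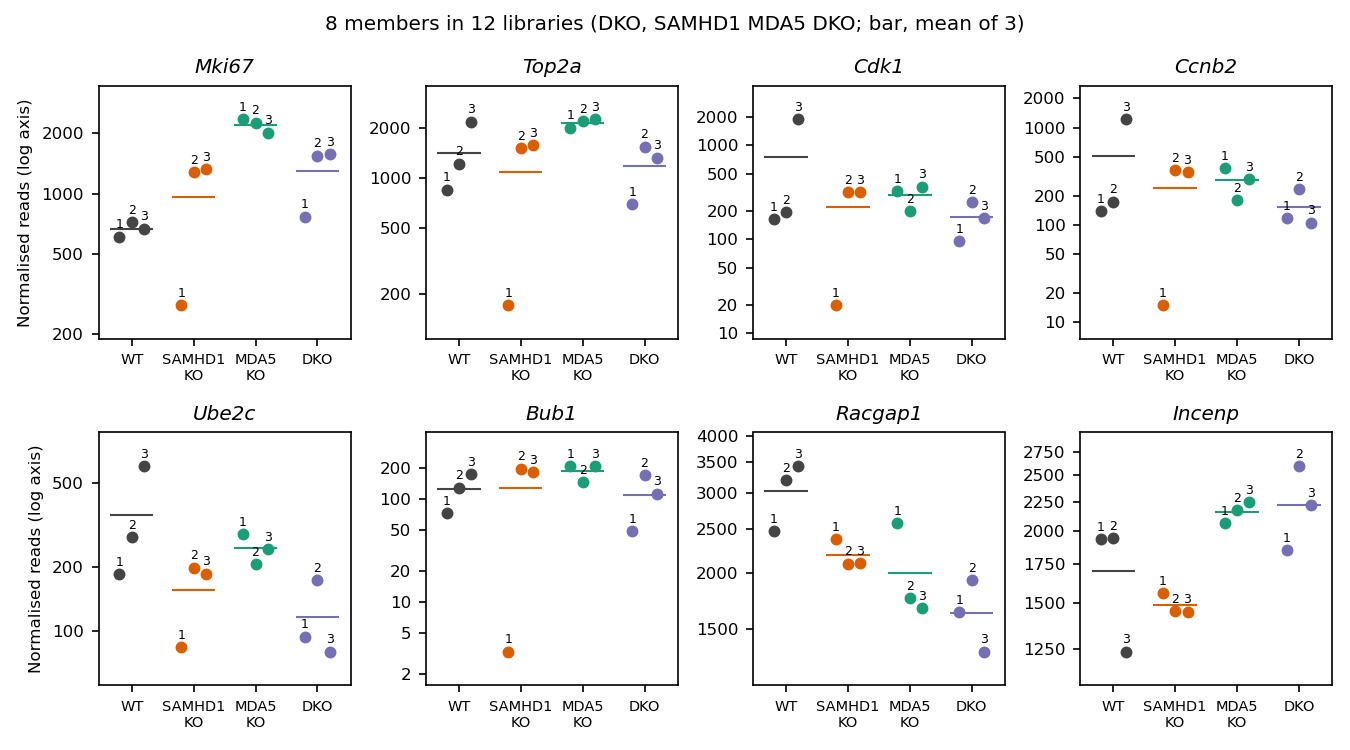
Normalised reads (log axis) of 8 members in the 12 libraries, with points numbered by library and a bar at the mean of 3. Mki67 in MDA5 KO lies between 2019 and 2350, above the 9 other libraries, and Cdk1 spans 20 in SAMHD1 KO 1 to 1885 in WT 3, while Racgap1 and Incenp stay within 1235 and 3435.

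The spread between libraries of a genotype was much larger in 2 genotypes than in the others. Averaged over the 37 members, log2(normalised reads + 1) was 7.16, 7.91 and 9.01 for WT, 5.20, 8.21 and 8.18 for SAMHD1 KO, 8.48, 8.02 and 8.31 for MDA5 KO, and 7.18, 8.14 and 7.51 for SAMHD1 MDA5 DKO. The genotype means with their SD over 3 libraries were 8.02 ± 0.93, 7.20 ± 1.73, 8.27 ± 0.23 and 7.61 ± 0.49. The ranges of all 4 genotypes overlapped. The range within a genotype was 3.01 in SAMHD1 KO, or 0.036 without SAMHD1 KO 1, and 1.85 in WT, or 0.75 without WT 3. It was 0.46 in MDA5 KO, or 0.17 without MDA5 KO 2, and 0.96 in SAMHD1 MDA5 DKO, or 0.32 without SAMHD1 MDA5 DKO 2. The SD of a single member within a genotype, on the log2 scale, had a median of 1.48 in SAMHD1 KO against 0.30 over all genes tested, and 0.86 in WT against 0.58. In SAMHD1 MDA5 DKO it was 0.59 against 0.23 and in MDA5 KO 0.25 against 0.26. The SD was above the 90th percentile of all tested genes for 31 of 37 members in SAMHD1 KO, 7 in WT, 3 in SAMHD1 MDA5 DKO and 1 in MDA5 KO. Pooled over genotypes, Ccnb1 (1.94), Pbk (1.90) and Ccna2 (1.86) had the largest SD and Incenp (0.23) and Racgap1 (0.25) the smallest.

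WT 3 and SAMHD1 KO 1 lay at the ends. WT 3 was the highest of the 12 libraries for 23 of 37 members and the lowest for 1, Incenp. It exceeded the mean of WT 1 and 2 for 35 members, at least 2-fold for 24 and at least 5-fold for 8. On the log2 scale, 24 members and 18.8% of all tested genes lay more than 1 above that mean, and 0 members and 25.5% more than 1 below. SAMHD1 KO 1 was the lowest library for 32 of 37 members, while 6.1% of all tested genes had their lowest value there. SAMHD1 KO 2 and 3 together exceeded it for 35 members, at least 2-fold for 34 and at least 10-fold for 14. The 2 exceptions were Incenp (0.929 times) and Racgap1 (0.885 times). On the log2 scale, SAMHD1 KO 1 lay more than 1 below the mean of SAMHD1 KO 2 and 3 for 34 members and 11.5% of all tested genes. The median difference between SAMHD1 KO 1 and the mean of the other SAMHD1 KO libraries was -2.55 on the log2 scale over the members and 0.014 over all genes tested. For WT 3 against WT 1 and 2 these medians were 1.43 and -0.076.

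The position of WT 3 differed among members by gene length. Across the members, the difference of WT 3 from the mean of WT 1 and 2 had a Spearman correlation of -0.56 with gene length (n = 37 genes of the same libraries, which are not independent). Across all 15130 tested genes it was -0.36. In the 12 shortest members, from 1531 to 3402 bases, the median difference was 1.92, against 0.19 in all tested genes of that length range. In the 13 of middle length it was 1.60 against -0.25, and in the 12 longest, from 5431 to 15433 bases, 0.54 against -0.68. In each class the median of the members lay above that of all tested genes of the same length range. Single members could lie lower, such as Incenp at -0.65 among the shortest. For SAMHD1 KO 1 the correlation with length was -0.044 across the members and 0.33 across all tested genes. Whether RNA quality had a part in these differences was not tested.

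**Figure D3:**
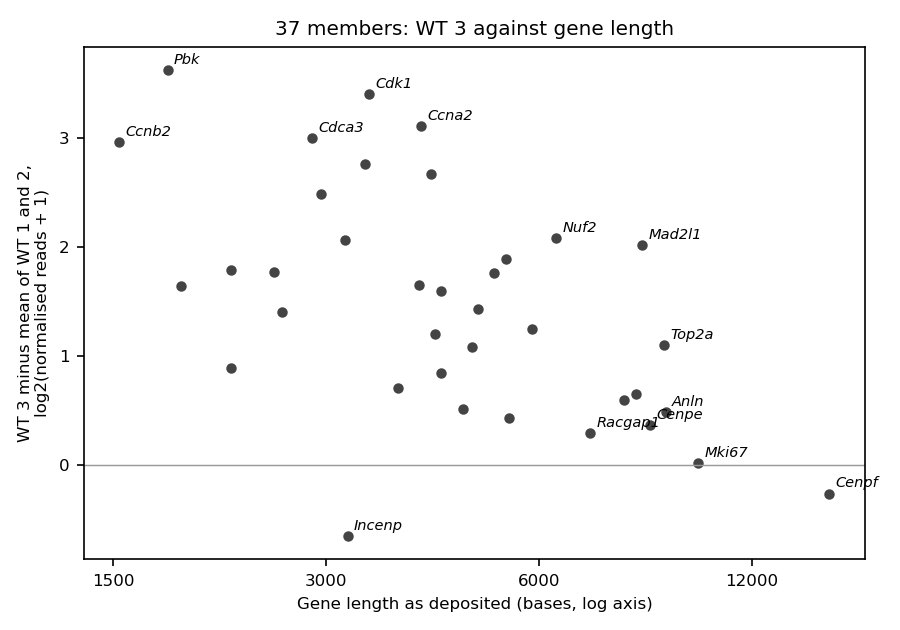
Difference of WT 3 from the mean of WT 1 and 2, in log2(normalised reads + 1), against the gene length given in the deposited tables (log axis), 1 point per member. The 2 shortest members, Ccnb2 and Pbk, lie at 2.96 and 3.62 and the 2 longest, Mki67 and Cenpf, at 0.015 and -0.26, while other short members such as Ndc80 (0.89) and Ube2c (1.40) lie lower.

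Smaller differences between other libraries of WT and of SAMHD1 MDA5 DKO had the same direction for most members. WT 2 was above WT 1 for 37 of 37 members, at least 2-fold for 10. SAMHD1 MDA5 DKO 2 was above SAMHD1 MDA5 DKO 1 for 36 and above SAMHD1 MDA5 DKO 3 for 34. The shares of all tested genes with these orders were not counted. Markers of other cells moved between the same libraries. The 8 T cell markers summed to 22.3 normalised reads in WT 1, 421 in WT 2 and 44.6 in WT 3, and to 12.7 to 107 in the 9 other libraries. The 7 B cell markers summed to 81.8, 5358 and 79.7 in WT and to 132 to 417 elsewhere. The 8 mast cell markers summed to 134, 12321 and 772 for WT, 184, 1454 and 1248 for SAMHD1 KO, 174, 447 and 878 for MDA5 KO, and 205, 15 and 222 for SAMHD1 MDA5 DKO. The 6 erythroid markers summed to 17.7, 91.4 and 532 for WT, 373 to 590 for SAMHD1 KO, 28.2 to 103 for MDA5 KO, and 4.41 to 91.7 for SAMHD1 MDA5 DKO. The 7 markers of small peritoneal macrophages, monocytes and dendritic cells summed to 4572, 7372 and 3351 for WT, 4380 to 4760 for SAMHD1 KO, 5298 to 8132 for MDA5 KO, and 4383 to 5970 for SAMHD1 MDA5 DKO. The 8 mesothelial and fibroblast markers, none of which passed the filter, summed to 2.93 to 124 but to 190 in MDA5 KO 2. The 7 granulocyte markers ran from 36.8 in MDA5 KO 1 to 354 in MDA5 KO 3. At least 1 library held 0 reads for 2 of 7 small macrophage, 8 of 8 mesothelial and fibroblast, 7 of 8 T cell, 4 of 7 B cell, 4 of 8 mast cell, 6 of 6 erythroid and 6 of 7 granulocyte markers. The part of such cells in the members' values was not tested.

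Each pair of genotypes was then compared gene by gene with limma, with 12 libraries in 1 fit and Benjamini-Hochberg adjustment over 15130 genes. Differences are in log2(normalised reads + 1) with their standard error, and the comparisons share libraries. No member passed an adjusted p of 0.05 in any of the 7 comparisons. Positive or negative below refers to the sign of an estimate and not to a call. Most members moved together between libraries, so counts of members with a sign or without overlap are not independent evidence.

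The first pair, SAMHD1 KO against WT, addresses the loss of SAMHD1 alone. Most members had a lower mean in SAMHD1 KO, with 34 of 37 differences negative and a median of -0.73, against 0.028 over all genes tested. This direction rested on the libraries that stood apart: the mean difference of -0.83 became 0.17 without SAMHD1 KO 1, -0.33 without WT 3 and 0.66 without both, where 34 of 37 members were positive. Without SAMHD1 KO 2, SAMHD1 KO 3, WT 1 or WT 2 it was -1.33, -1.31, -1.26 or -0.88. With SAMHD1 KO 2 and 3 averaged as 1 library, a setting also chosen after seeing the data, it was -1.32, with 37 of 37 members negative. That setting gives SAMHD1 KO 1 more weight. With all libraries the 4 genes of cyclins and CDK1 were negative (median -1.81), as were the 5 other mitotic kinases (-1.15), and kinetochore genes lay nearest to 0 (2 of 6 positive, median -0.17). All genes of these 3 groups were positive without WT 3 and SAMHD1 KO 1, with medians of 0.81, 0.49 and 1.02. Ube2c differed by -1.10 ± 0.47 (limma adjusted p = 0.315), Racgap1 by -0.46 ± 0.22 (0.332) and Aurkb by -1.26 ± 0.66 (0.355), and without WT 3 by -0.63, -0.36 and -0.43. With 0 of 37 members called, the share of all tested genes called was 0%. At an unadjusted p under 0.05 there was 1 member, Ube2c, against 15.4% of all genes. Groups did not overlap for 0 members with SAMHD1 KO higher (12.3% of all genes) and 1 with SAMHD1 KO lower, Racgap1 (7.85%).

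MDA5 KO against WT addresses the loss of MDA5 alone. Mki67 was higher in MDA5 KO, at 2210 ± 171 against 668 ± 55.3 normalised reads (SD, n = 3), a difference of 1.72 ± 0.49 that did not pass (limma adjusted p = 0.196). Leaving out single libraries moved it only from 1.66 to 1.79. Racgap1 differed the other way, at 2000 ± 493 against 3031 ± 505 normalised reads and by -0.61 ± 0.22 (limma adjusted p = 0.196), and Cenpe by 1.03 ± 0.50 (0.237). Over the members, 22 differences were positive and 15 negative, with a median of 0.15 against 0.083 over all genes. The mean difference of 0.25 became 0.74 without WT 3, with 35 positive, and -0.18 without WT 1. It was 0.19 without WT 2 and 0.14 without MDA5 KO 1. With all libraries the 5 spindle genes were positive (median 0.76) and the 4 genes of cyclins and CDK1 negative (-0.30). That split rested on WT 3: without WT 3 and SAMHD1 KO 1, 3 of the 4 were positive (median 0.76), with Ccnb1 at -0.22, and the spindle genes had a median of 1.17. With the adjusted set of libraries as a covariate the mean over all members was 0.56, with 32 positive. Without WT 3 and SAMHD1 KO 1, limma called 2 members, Kif11 and Mki67, against 2.37% of all genes. The spread of SAMHD1 KO 2 and 3 enters that shared fit. With all libraries 0 members and 0.00661% of all genes were called, and 2 members had an unadjusted p under 0.05 against 22.4%. Groups did not overlap for 9 members with MDA5 KO higher, against 13.9% of all genes, and for 0 with MDA5 KO lower, against 14.2%. The 9 were Incenp, Cenpe, Cenpf, Kif11, Tpx2, Hmmr, Kif23, Anln and Mki67.

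SAMHD1 MDA5 DKO against WT addresses the loss of both. Racgap1 and Ube2c were lower in all 3 SAMHD1 MDA5 DKO libraries than in any WT library. Racgap1 (ENSMUSG00000023015, chromosome 15, 99620496 to 99651656) stood at 1635 ± 292 against 3031 ± 505 normalised reads (SD, n = 3), a difference of -0.89 ± 0.22 (limma adjusted p = 0.127). Ube2c (ENSMUSG00000001403, chromosome 2, 164769898 to 164778822) stood at 116 ± 50.5 against 355 ± 219, a difference of -1.52 ± 0.47 (0.127), or -1.05 without WT 3. Without WT 1 limma called both, at -1.03 and -1.89, along with 11.8% of all genes. Incenp differed by 0.40 ± 0.21 (limma adjusted p = 0.219), or 0.18 without WT 3. Of the members, 7 were positive and 30 negative, with a median of -0.33 against 0.065 over all genes. The mean difference of -0.41 became 0.079 without WT 3, -0.85 without WT 1 and -0.47 without WT 2. It was -0.20 or -0.68 when SAMHD1 MDA5 DKO 1 or 2 was left out. With all libraries 0 members and 0.00661% of all genes were called, and 2 members had an unadjusted p under 0.05 against 27.8%. Groups did not overlap for 2 members with SAMHD1 MDA5 DKO higher, Cenpe and Mki67 (17.5% of all genes), and 2 with it lower (17.1%).

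SAMHD1 MDA5 DKO against SAMHD1 KO addresses the added loss of MDA5 in cells that lack SAMHD1. The sign of the comparison turned on SAMHD1 KO 1. With it, 31 of 37 members were positive, with a median of 0.46 against 0.018 over all genes and a mean of 0.41. Without it, 33 were negative and the mean was -0.58. The mean was 0.92 and 0.90 without SAMHD1 KO 2 and 3, and 0.63 and 0.15 when SAMHD1 MDA5 DKO 1 and 2 were left out in turn. Incenp (ENSMUSG00000024660, chromosome 19, 9872297 to 9899533) kept its direction under each of these, between 0.45 and 0.69. It stood at 2222 ± 372 normalised reads in SAMHD1 MDA5 DKO and 1486 ± 63.9 in SAMHD1 KO (SD, n = 3), a difference of 0.57 ± 0.21 (limma adjusted p = 0.562). Racgap1 differed by -0.43 ± 0.22 (limma adjusted p = 0.582) and Ttk by 1.14 ± 0.73 (0.646), or 0.25 without SAMHD1 KO 1. Members called numbered 0, against 0.0132% of all genes, and 1 member had an unadjusted p under 0.05, against 8.81%. Groups did not overlap for 1 member with SAMHD1 MDA5 DKO higher, Incenp (9.14% of all genes), and 1 with it lower, Racgap1 (9.13%). Without WT 3 and SAMHD1 KO 1, limma called 4 members (Ccnb2, Incenp, Cenpa and Spc25) and 25.2% of all genes. With SAMHD1 KO 2 and 3 averaged as 1 library the mean member difference was 0.91, and 0 members and 0% of all genes were called.

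SAMHD1 MDA5 DKO against MDA5 KO addresses the added loss of SAMHD1 in cells that lack MDA5. Here the members were lower in SAMHD1 MDA5 DKO, 35 of 37 in sign, and leaving out any single library kept the mean difference of -0.66 between -0.93 and -0.45. It was -0.98 with the adjusted set as a covariate and -0.20 with the deposited log2 values. The median was -0.74 against -0.002 over all genes, and neither WT 3 nor SAMHD1 KO 1 enters the difference. For 15 of 37 members all 3 SAMHD1 MDA5 DKO libraries lay below all 3 MDA5 KO libraries, against 4.10% of all genes, and for 0 above, against 2.93%. The 15 were Ccna2, Aurka, Pbk, Bub1b, Ube2c, Ndc80, Nuf2, Kif11, Kif2c, Nusap1, Prc1, Anln, Mki67, Top2a and Cdca3. The member means of single libraries overlapped, at 7.18, 8.14 and 7.51 in SAMHD1 MDA5 DKO against 8.48, 8.02 and 8.31 in MDA5 KO. Ube2c stood at 116 ± 50.5 against 246 ± 40.1 normalised reads (SD, n = 3) and differed by -1.15 ± 0.47 (limma adjusted p = 1). Mki67 differed by -0.84 ± 0.49 (limma adjusted p = 1), or -0.50 without SAMHD1 MDA5 DKO 1, and Bub1b by -0.86 ± 0.60 (limma adjusted p = 1). No single member passed: 0 were called, with 0% of all genes, and 1 had an unadjusted p under 0.05, against 1.02%. Without WT 3 and SAMHD1 KO 1, whose spread enters the shared fit, again 0 members and 0% of all genes were called.

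SAMHD1 KO against MDA5 KO sets the single knockouts side by side. With all libraries the members were lower in SAMHD1 KO, 34 of 37 in sign, with a median of -1.18 against -0.012 over all genes. The mean difference of -1.08 became -0.079 without SAMHD1 KO 1, with 22 negative, and was -1.58 without SAMHD1 KO 2. With SAMHD1 KO 2 and 3 averaged as 1 library it was -1.57. Mki67 stood at 961 ± 592 against 2210 ± 171 normalised reads (SD, n = 3) and differed by -1.50 ± 0.49 (limma adjusted p = 0.469), or -0.76 without SAMHD1 KO 1. Incenp differed by -0.54 ± 0.21 (limma adjusted p = 0.494) and Top2a by -1.53 ± 0.69 (0.521), or -0.48 for Top2a without SAMHD1 KO 1. Groups did not overlap for 12 members with SAMHD1 KO lower, against 8.74% of all genes, and 0 with it higher, against 7.15%. The 12 were Aurkb, Incenp, Bub1b, Ube2c, Kif11, Kif2c, Tpx2, Nusap1, Kif23, Mki67, Top2a and Cdca3. Members called numbered 0, against 0.00661% of all genes, and 3 had an unadjusted p under 0.05, against 9.53%.

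The interaction asks whether the loss of MDA5 acts differently with and without SAMHD1, as the difference of SAMHD1 MDA5 DKO from SAMHD1 KO less that of MDA5 KO from WT. No member stood out: 0 were called, with 0% of all genes, and 0 had an unadjusted p under 0.05, against 3.21%. Over the members 23 were positive, with a median of 0.12 against -0.05 over all genes, and with the adjusted set as a covariate 14 were positive. The mean of 0.16 became -0.83 without SAMHD1 KO 1, -0.33 without WT 3 and -1.32 without both, where 35 of 37 were negative. It was -0.10 without SAMHD1 MDA5 DKO 2, 0.039 without MDA5 KO 2, 0.27 without MDA5 KO 1, and 0.38 to 0.67 without SAMHD1 MDA5 DKO 1, WT 1, SAMHD1 KO 3 or SAMHD1 KO 2. With SAMHD1 KO 2 and 3 averaged as 1 library the mean was 0.66, with 32 positive. Mki67 gave -1.06 ± 0.69 (limma adjusted p = 0.894), or -1.80 without SAMHD1 KO 1. Ccnb1 gave 2.19 ± 1.86 (0.894) and Ttk 0.97 ± 1.04 (0.895), or 0.50 and 0.087 without SAMHD1 KO 1.

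**Figure D4:**
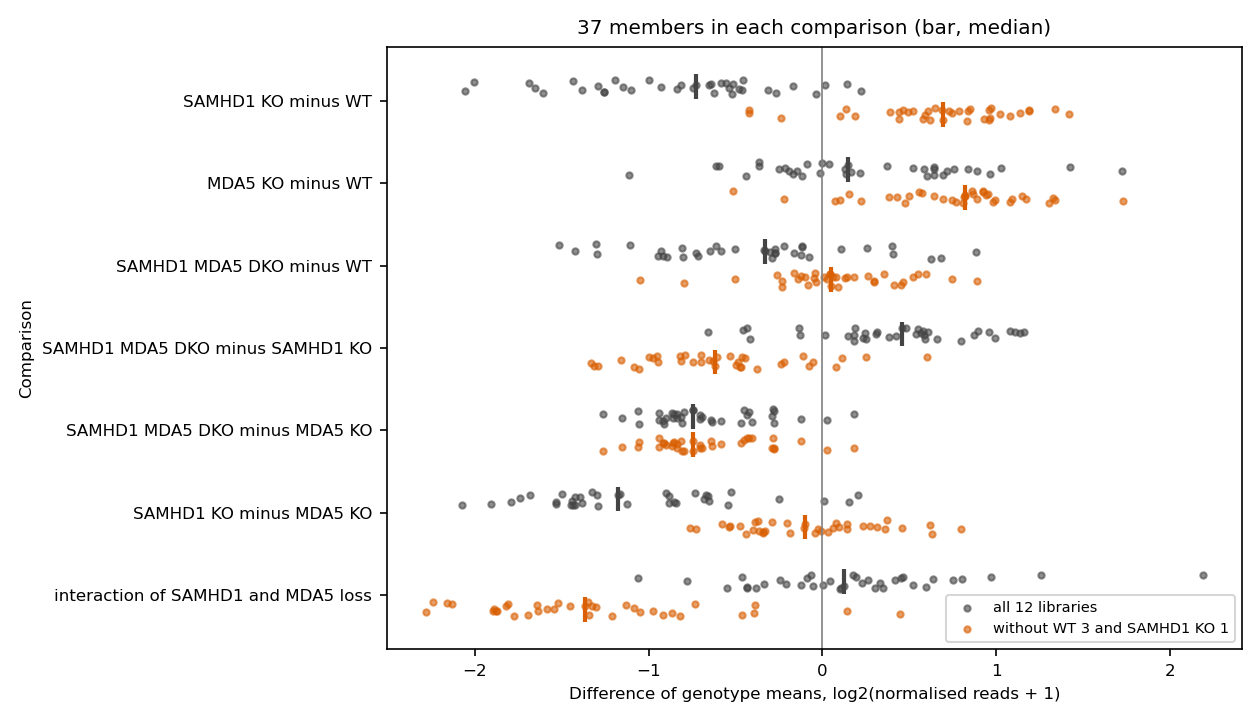
Difference of genotype means in log2(normalised reads + 1) for 37 members in the 7 comparisons, with all 12 libraries (grey) and without WT 3 and SAMHD1 KO 1 (orange); bars mark medians. The median of SAMHD1 KO minus WT moves from -0.73 to 0.70 and that of the interaction from 0.12 to -1.37, while SAMHD1 MDA5 DKO minus MDA5 KO, which uses neither library, stays at -0.74.

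The authors' deposited tables give their own fold changes on the log2 scale, and they call members in 2 of the 6 pairs of genotypes. The authors' deposited table of SAMHD1 MDA5 DKO against WT has Mki67 higher (0.86, adjusted p = 0.0296) and Racgap1 (-0.82, adjusted p = 0.0148) and Ube2c (-1.17, adjusted p = 0.0315) lower, with 7.42% of its genes called. The authors' deposited table of MDA5 KO against WT has Mki67 (1.52, adjusted p = 2.36e-15), Top2a (0.91, adjusted p = 6.96e-05) and Kif11 (0.94, adjusted p = 0.0169) higher in MDA5 KO, with 2.17% called. In the library values of that table WT 3 equals the mean of the 5 other libraries, as a difference between the 2 sets had been subtracted gene by gene. The library values for SAMHD1 MDA5 DKO against WT were adjusted likewise, with WT 3 and SAMHD1 MDA5 DKO 3 in 1 set. Whether the authors' fold changes and p-values came from adjusted values is not given. The authors' deposited tables of the remaining pairs call 0 members: SAMHD1 KO against WT (0.606% of genes called), SAMHD1 MDA5 DKO against MDA5 KO (0.159%), SAMHD1 MDA5 DKO against SAMHD1 KO (1.83%) and MDA5 KO against SAMHD1 KO (0.802%). For SAMHD1 MDA5 DKO against MDA5 KO, 35 of 37 members were negative in the authors' deposited table (median -0.31), and 35 were positive in that of MDA5 KO against WT (0.47), where the fit above had 22. For SAMHD1 MDA5 DKO against SAMHD1 KO the authors' deposited table has 15 positive and 22 negative (median -0.032), where the fit above had 31 positive. It has 6 positive for SAMHD1 KO against WT (-0.26), 7 for SAMHD1 MDA5 DKO against WT (-0.26) and 34 for MDA5 KO against SAMHD1 KO (0.27), in the authors' deposited tables of these pairs.

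Other genes of the cell cycle were read from lists beside the members. Among 78 other genes of G2/M and mitosis, WT 3 was the highest library for 42 and SAMHD1 KO 1 the lowest for 57. Their mean log2 value was 6.82, 7.45 and 8.36 for WT, 5.37, 7.60 and 7.57 for SAMHD1 KO, 7.94, 7.69 and 7.88 for MDA5 KO, and 6.87, 7.67 and 7.25 for SAMHD1 MDA5 DKO. With all libraries no gene of the list was called in any comparison. Positive and negative differences numbered 13 and 65 in SAMHD1 KO minus WT, 56 and 22 in MDA5 KO minus WT, 25 and 53 in SAMHD1 MDA5 DKO minus WT, 62 and 16 in SAMHD1 MDA5 DKO minus SAMHD1 KO, 8 and 70 in SAMHD1 MDA5 DKO minus MDA5 KO and 9 and 69 in SAMHD1 KO minus MDA5 KO. Without WT 3 and SAMHD1 KO 1 they numbered 66 and 12, 68 and 10, 52 and 26, 23 and 55, 8 and 70, and 21 and 57 in the same order, so that 3 of the 6 turned. There 1, 6, 3, 4, 0 and 9 of the 78 genes were called, against 2.54%, 2.37%, 7.52%, 25.2%, 0% and 24.6% of all genes. Tubb4b, a beta tubulin, differed from WT by -1.33 ± 0.36 in SAMHD1 KO (limma adjusted p = 0.312), -1.17 ± 0.36 in MDA5 KO (0.196) and -1.42 ± 0.36 in SAMHD1 MDA5 DKO (0.127), or by -0.82, -0.66 and -0.91 without WT 3; without both libraries the last was called (-0.91, limma adjusted p = 0.0199). Pkmyt1, a kinase that holds CDK1 inactive, gave -2.43 ± 0.64 in SAMHD1 KO minus MDA5 KO (limma adjusted p = 0.37), and Ncapg2, a condensin II subunit, -1.37 ± 0.43 (0.454). When WT 3 and SAMHD1 KO 1 were left out both were called, at -2.08 (limma adjusted p = 0.0175) and -0.90 (0.0398), along with 24.6% of all genes. Ccnf, for cyclin F, gave -1.10 ± 0.53 in SAMHD1 MDA5 DKO minus MDA5 KO and Cdca2 -0.68 ± 0.35 (limma adjusted p = 1 for both).

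The 20 genes of replication licensing and the helicase, used before G2, showed the same ends but a different order between. Their mean log2 value was 9.90 in WT 3 against 8.44 and 8.16 in WT 1 and 2, and 7.43 in SAMHD1 KO 1 against 8.30 and 8.31 in SAMHD1 KO 2 and 3. Mcm10 gave -2.40 ± 0.72 and Mcm4, a helicase subunit, -1.09 ± 0.32 in SAMHD1 KO minus MDA5 KO (limma adjusted p = 0.425 for both). With both libraries left out they gave -1.51 and -1.09, and Mcm4 was called (limma adjusted p = 0.0204), along with 24.6% of all genes. In SAMHD1 MDA5 DKO minus MDA5 KO, 19 of 20 were negative with a median of -0.28. The 9 G1 cyclins and their kinases averaged 10.57 in WT 3 and 8.20 in SAMHD1 KO 1. Ccnd1, for cyclin D1, had normalised reads of 10499, 4059 and 24418 for WT, of 2344, 2358 and 2532 for SAMHD1 KO, of 5814, 20250 and 11011 for MDA5 KO, and of 5548, 9402 and 17835 for SAMHD1 MDA5 DKO. Ccnd1 was below all 9 other libraries in SAMHD1 KO, including SAMHD1 KO 2 and 3, in which the members were not low. It differed by -2.07 ± 0.60 from WT (limma adjusted p = 0.312), -2.18 ± 0.60 from MDA5 KO (0.389) and, seen from SAMHD1 MDA5 DKO, by 2.02 ± 0.60 (0.562). These were, with both libraries left out, -1.42, -2.16 and 2.00, none of them called.

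CDK inhibitors and pocket proteins, which hold cells in G1, averaged 9.79 to 10.10 in all 12 libraries. Cdkn1a, for p21, gave -0.87 ± 0.24 in SAMHD1 KO minus WT (limma adjusted p = 0.312), and Cdkn2a gave -1.55 ± 0.41 in SAMHD1 KO minus MDA5 KO (0.37). Leaving out WT 3 and SAMHD1 KO 1, both were called, at -0.93 (limma adjusted p = 0.0245) and -1.79 (0.00369). In that setting 2.54% and 24.6% of all genes were called in these comparisons. Cdkn1b went the other way with all libraries, at 0.90 ± 0.29 in SAMHD1 KO minus MDA5 KO (limma adjusted p = 0.464). Of the 10 genes of this list, 4 were positive and 6 negative in each of the 2 comparisons. The 20 factors of MuvB, B-Myb, FOXM1 and E2F averaged 9.26 in WT 3 and 8.11 in SAMHD1 KO 1, against 8.76 to 9.19 elsewhere. E2f2 gave -2.45 ± 0.67 in SAMHD1 KO minus WT (limma adjusted p = 0.312), or -1.39 without both libraries. The 16 genes tied to self-renewal and identity of resident macrophages did not follow the members: their mean was lowest in WT 3, at 11.67, and stood at 12.16 in SAMHD1 KO 1, above the 11.88 and 11.90 of SAMHD1 KO 2 and 3. Myc, a driver of self-renewal, had normalised reads of 2208, 1832 and 1773 for WT and of 1825, 578 and 587 for SAMHD1 KO, with 1553 to 2332 in the other 6 libraries. Myc was thus low in SAMHD1 KO 2 and 3 and not in SAMHD1 KO 1, the reverse of the members. It differed by -1.18 ± 0.36 from WT (limma adjusted p = 0.312). Without WT 3 and SAMHD1 KO 1 it differed by -1.79 and was called (limma adjusted p = 0.00339), along with 2.54% of all genes. All calls of SAMHD1 KO in that setting rest on SAMHD1 KO 2 and 3 alone. With these averaged as 1 library, and WT 3 and SAMHD1 KO 1 kept, 0 of all tested genes were called. With all libraries no gene of these lists was called in any comparison.

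**Figure D5:**
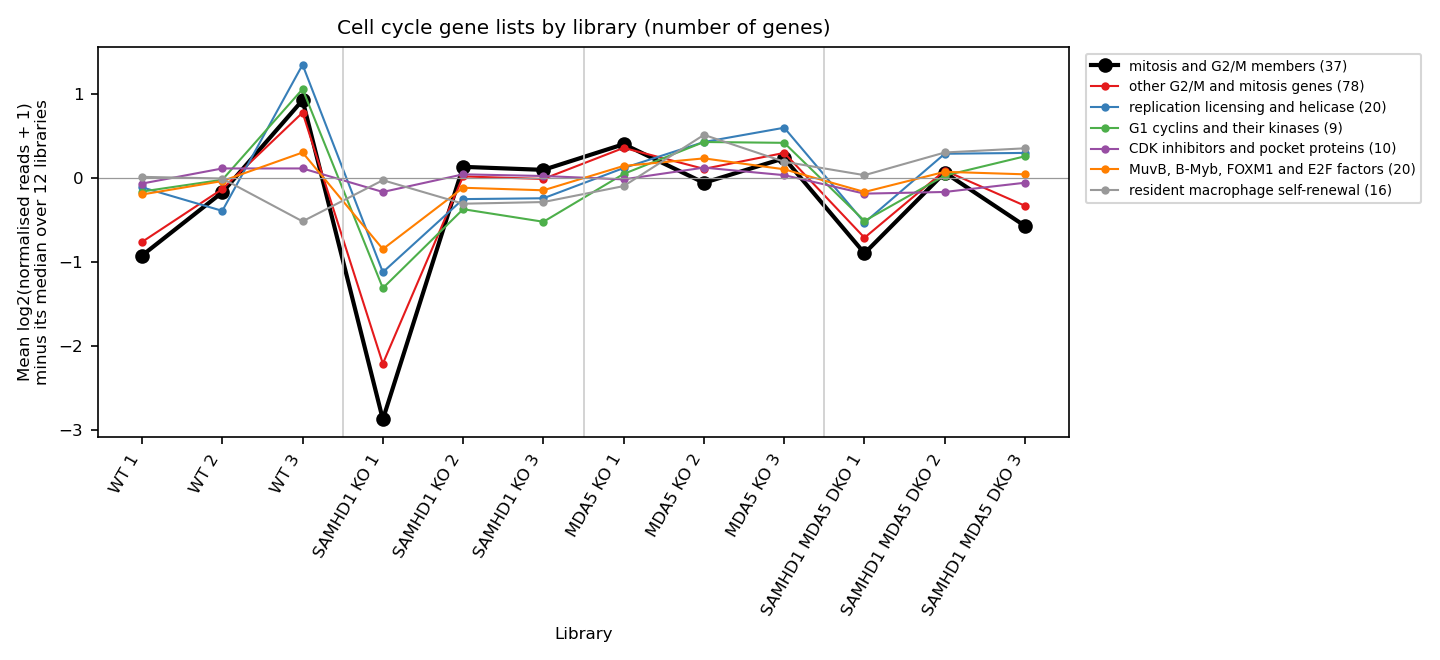
Mean log2(normalised reads + 1) of the 37 members and of 6 other gene lists in each of 12 libraries, each minus its median over the libraries. The members and 4 of the lists peak in WT 3 and dip in SAMHD1 KO 1, where the member mean is 5.20 against 9.01 in WT 3, whereas CDK inhibitors stay near 0 and the self-renewal list is lowest in WT 3.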

How the data were processed

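Total RNA of 12 libraries was sequenced, and the values come from 6 deposited tables, 1 per pair of genotypes. Per the submitters' processing notes, STAR, Salmon, R 4.1.2 and DESeq2 were used on GRCm38 (mm10), and which tool made which column is not stated. The deposited log2 library columns behaved as variance-stabilised reads from which a difference between 2 sets of libraries (WT 3, SAMHD1 KO 2 and SAMHD1 MDA5 DKO 3 against the other 9) had been subtracted gene by gene. Whole reads were solved from these columns together with the authors' mean signal per gene (baseMean), for 33641 genes within a tolerance of 0.05, and tables that share a library gave the same reads. The deposited p-values and log2 fold changes are the authors' own.

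Size factors by the median of ratios scaled the reads. Tested were the 15130 genes that reached a CPM of 0.228, or 10 reads in a library of median size, in 3 or more libraries. limma 3.58.1 in R 4.3.3 was run on log2(normalised reads + 1) with genotype only, trend and robust moderation, and Benjamini-Hochberg adjustment at 0.05. No count model was used. The alternatives were other filters, pseudocounts, scalings and moderation, library weights, the adjusted set as a covariate, the replicate number as a block, the deposited values and leaving out libraries. The 2 further settings, chosen after seeing the data, left out WT 3 and SAMHD1 KO 1 together or averaged SAMHD1 KO 2 and 3.

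The members, though picked by symbol, and the gene lists were chosen with earlier results of these data known. Members may be named with their levels. Differences are printed for members called and for the 3 with the smallest p in each comparison. In other lists they could be printed for genes called and the 2 with the smallest p. Only a selection of these is given. Depth limits the lowest values, such as Ccnb1 with 1 read in SAMHD1 KO 1, and intervals cover counting error only.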

Additional observations from a re-analysis of the deposited data

How the results depend on the processing

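Of 167 alternative values of the mean member difference 163 moved by less than the spread between libraries, which is wide enough to hold changes of sign. The reported count of members called was 0 in each comparison. Of 167 alternative counts 155 were also 0 and 12 were higher. Of 835 values for single named genes 795 kept side and direction, 36 passed the threshold where the reported value did not, and 4 reversed. With array quality weights limma called 8 members in SAMHD1 KO minus WT (45.1% of all genes called), 5 in MDA5 KO minus WT (29%), 3 in SAMHD1 MDA5 DKO minus WT (38.1%), 7 in SAMHD1 MDA5 DKO minus SAMHD1 KO (44.9%), 4 in SAMHD1 KO minus MDA5 KO (44.4%) and 2 in the interaction (8.81%), where the mean was -0.91 and Ttk was -0.58. With these weights the mean member difference was 0.28 in SAMHD1 KO minus WT (28 of 37 positive) and -0.46 in SAMHD1 MDA5 DKO minus SAMHD1 KO (32 negative), both opposite in sign to the reported means. With the adjusted set as a covariate the interaction mean was -0.15. Without WT 3 and SAMHD1 KO 1, a setting chosen after seeing the data, 0, 2, 1, 4, 1 and 0 members were called in the same order, against 2.54%, 2.37%, 7.52%, 25.2%, 24.6% and 0.0925% of all genes, and 0 and 0% in SAMHD1 MDA5 DKO minus MDA5 KO. There the mean of SAMHD1 KO minus WT was 0.66 and that of the interaction -1.32. There Aurkb was 0.14 in SAMHD1 KO minus WT, and Ttk and Ccnb1 were each -0.39 in the interaction. With the deposited log2 values 1 member, Racgap1, was called in SAMHD1 MDA5 DKO minus WT (8.08% of all genes), and the mean of SAMHD1 MDA5 DKO minus MDA5 KO was -0.20; these values give no interaction. With SAMHD1 KO 2 and 3 averaged as 1 library, 0 members and 0% of all genes were called in each comparison. The cause of these changes was not tested. Leaving out 1 library in turn gave 0 to 2 members called in SAMHD1 MDA5 DKO minus WT, and ranges of the member mean of 0.75 to 1.85 in WT, 0.036 to 3.01 in SAMHD1 KO, 0.17 to 0.46 in MDA5 KO and 0.32 to 0.96 in SAMHD1 MDA5 DKO. Scaling to library totals moved the median of all genes in SAMHD1 MDA5 DKO minus SAMHD1 KO from 0.018 to 0.13 and in the interaction from -0.05 to 0.053.

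The labels share replicate numbers across genotypes, without saying that a number marks anything in common. Correlations of same-numbered libraries ran from -0.057 to 0.34, 8 of 18 were over 0.1, and 9 of 12 libraries correlated best with their own number, a hint from the data and not the design. With the replicate block 0 members were called in each comparison. In this balanced design the block cannot change a difference and moves only its error: members with an unadjusted p under 0.05 went from 3 to 13 in SAMHD1 KO minus MDA5 KO.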
